A study of Homo sapiens with 8 samples.

Results

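The genes described here encode the enzymes that build purine and pyrimidine nucleotides from small precursors, in the human line MOLM-13, which was derived from an acute myeloid leukemia. The 10 genes were listed by name for their place in the pathway, with earlier results of these data known, and no measured value enters the list: PPAT, GART, PFAS, PAICS, ADSL, ATIC and IMPDH2 for purines, and CAD, DHODH and UMPS for pyrimidines. All 10 were found among the 58735 gene IDs of the count files, and all 10 averaged at least 5 CPM (read counts scaled to a common library size), as did 10710 genes in all. RNA was sequenced in bulk from untreated parental cells (parental replicate 2) and from cultures given 1% DMSO, the vehicle, over 1, 3 or 5 courses, with 1 library each. The DMSO cultures are the drug-free controls of a study of resistance to the alkylating agent busulfan, which was given at 25 to 200 µM for 6 h. All 4 groups are the same unmodified line. As far as the labels tell, the DMSO cultures differ from the parental cells only by vehicle and culture. The labels give a maximum of 20 passages for the parental cells. No label gives the DMSO cultures' passage number, so course and passage cannot be told apart. Neither the libraries from busulfan-treated cells nor parental replicate 1 are covered, and they were not analysed here.

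De novo purine synthesis starts from phosphoribosyl pyrophosphate (PRPP), a sugar phosphate, and builds the purine ring on it step by step, with folate carrying some of the carbon atoms. The product, inosine monophosphate, is then turned into AMP or GMP. Pyrimidine synthesis instead builds the ring first, starting with CAD, passes through a mitochondrial step carried out by DHODH, and adds PRPP at the end to give uridine monophosphate. Dividing leukemia cells draw on both routes for RNA and DNA, and inhibitors of DHODH and IMPDH have been studied in acute myeloid leukemia.

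Promoter windows from RefSeq (GRCh38.p14, 250 bases before to 50 after the annotated start) were at hand for 8 of the 10 genes. ADSL and IMPDH2 had none. The windows were searched for CACGTG, the canonical E-box, a palindrome that MYC and other helix-loop-helix factors are known to bind. It was in 3 of the 8 windows (37.5%), against 7.26% of 35116 windows of the same length. Those 35116 were all windows at hand, not matched for base composition or expression. PPAT and ATIC encode the first and the last enzyme of the route to inosine monophosphate, and DHODH the mitochondrial pyrimidine step. The 3 windows with the motif are shown with that of PAICS. PAICS lies head to head with PPAT on chromosome 4, and its window has no match. Capitals mark CACGTG, and each sequence is given 5′ to 3′ on the gene's own strand.
PPAT: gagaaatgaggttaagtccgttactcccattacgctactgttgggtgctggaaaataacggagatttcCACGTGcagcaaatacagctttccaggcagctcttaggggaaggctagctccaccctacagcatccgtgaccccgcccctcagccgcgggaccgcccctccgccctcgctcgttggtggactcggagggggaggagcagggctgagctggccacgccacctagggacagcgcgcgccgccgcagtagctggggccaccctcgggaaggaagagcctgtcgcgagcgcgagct
PAICS: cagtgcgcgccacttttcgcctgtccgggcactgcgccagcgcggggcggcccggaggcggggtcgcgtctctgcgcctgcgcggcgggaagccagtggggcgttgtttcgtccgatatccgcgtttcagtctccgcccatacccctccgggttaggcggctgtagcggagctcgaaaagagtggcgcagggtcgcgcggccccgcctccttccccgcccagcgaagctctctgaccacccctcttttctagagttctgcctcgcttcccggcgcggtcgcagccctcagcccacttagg
ATIC: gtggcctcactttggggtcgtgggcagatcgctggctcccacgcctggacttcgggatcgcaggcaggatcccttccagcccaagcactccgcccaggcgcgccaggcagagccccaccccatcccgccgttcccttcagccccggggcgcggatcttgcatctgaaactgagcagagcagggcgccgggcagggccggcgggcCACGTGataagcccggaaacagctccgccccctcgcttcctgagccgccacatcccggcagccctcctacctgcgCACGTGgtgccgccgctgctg
DHODH: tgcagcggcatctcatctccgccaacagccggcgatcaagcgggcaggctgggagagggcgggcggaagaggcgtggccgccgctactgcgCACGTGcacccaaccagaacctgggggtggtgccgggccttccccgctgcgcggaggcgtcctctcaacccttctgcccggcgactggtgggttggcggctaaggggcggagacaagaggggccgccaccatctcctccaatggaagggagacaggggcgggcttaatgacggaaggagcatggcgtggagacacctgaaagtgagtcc

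The PPAT window is chr4:56435566-56435865 on the minus strand, and its E-box begins 182 bases before the start. The PAICS window is chr4:56436010-56436309 on the plus strand, and the RefSeq starts of the pair lie 645 bases apart. The E-box of the PPAT window lies between these starts, so it is also upstream of PAICS but outside the PAICS window. In GENCODE 29 the outermost annotated starts of the same pair lie 126 bases apart. The ATIC window, chr2:215311809-215312108 on the plus strand, holds the motif at 46 bases before and at 29 bases after the start. The DHODH window, chr16:72008494-72008793 on the plus strand, holds it at 159 bases before the start. A search of both strands for CCAAT found it in the windows of GART, CAD and DHODH, which is 37.5% against 34.6% of all windows. GGGCGG, the core of a GC box, was in 7 of the 8 (87.5%, all but UMPS), against 45% of all windows. None of the 3 motifs contains another, and a match in the sequence is a description and not a binding site.

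The libraries held 44795976 to 56825811 gene counts. Using total counts in place of TMM library scaling moves all log2 ratios to the parental library by -0.11 in course 1, -0.08 in course 3 and -0.04 in course 5. Mitochondrial transcripts made up 13.57% of gene counts in parental cells, 14.36% in course 1, 15.11% in course 3 and 9.22% in course 5. Summed markers of myeloid cells, the labelled lineage, were 3421 to 4651 CPM, with all 8 markers detected, highest in course 1. Of the other cell types checked, erythroid markers summed to at most 0.0232 CPM with 3 of 5 at 0. T and NK cell markers, mostly TRAC and NKG7, summed to 113 to 173 CPM, again highest in course 1. CD2 was at 0 in all 4 libraries and CD3E at 0 in the 3 DMSO libraries. CD3D went the other way from the sum, with 4.11 CPM in parental cells and 0.557, 0.0597 and 0.0878 CPM in courses 1, 3 and 5. B cell markers summed to 0.439 to 3.34 CPM and fibroblast markers to 1.23 to 3.26 CPM. Epithelial markers, from KRT8 and KRT18, were 40.2 CPM in the parental library and 20.3, 12.3 and 10.4 CPM in courses 1, 3 and 5. The part of any of these in the results was not tested. In bulk RNA, fewer cells of a kind and less RNA per cell cannot be told apart.

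Per length of annotated exons, on the TPM scale, IMPDH2 was the most abundant of the 10 in every library. DHODH was the least abundant in 3 libraries, and ADSL in course 3. IMPDH2, the first step from inosine monophosphate to GMP, stood at 351 TPM in parental cells and 339, 319 and 382 TPM in courses 1, 3 and 5. Next by mean TPM came PAICS (80.1), ATIC (77.5), CAD (52.5), PFAS (46.5), GART (38.2), PPAT (27.4), UMPS (14.7), ADSL (11.4) and DHODH (9.38). IMPDH2 was the 1 gene whose range over the 4 libraries did not overlap that of its neighbour in this order. All other neighbours overlapped in range. Within each library ATIC was nevertheless above CAD, GART above PPAT, PPAT above UMPS, and UMPS above ADSL. The last of these was by little in course 1 (9.84 against 9.70 TPM). PAICS and ATIC, CAD and PFAS, PFAS and GART, and ADSL and DHODH changed places between libraries, so their order is not fixed. Exonic lengths run from 2773 bases for IMPDH2 to 8422 for CAD, and a transcript shorter than the annotated union of exons is understated by TPM.

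**Figure D1:**
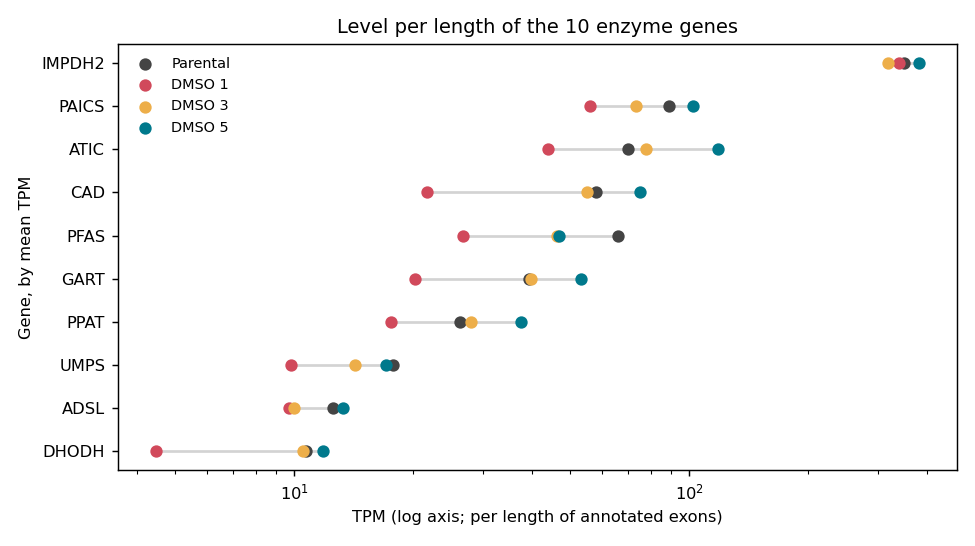
Level per length (TPM, log axis) of the 10 enzyme genes, ordered by mean, with 1 point per library (parental, and DMSO courses 1, 3 and 5) and a grey line over their range. IMPDH2 lies apart at 319 to 382 TPM, and the course 1 point is the leftmost for 9 of the 10 genes.

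The summed TPM of the 9 genes other than IMPDH2 was 389 in parental cells, 210 in course 1, 356 in course 3 and 476 in course 5. Course 1 was the low library of the 4. With IMPDH2 included the sums were 740, 550, 675 and 858 TPM. TPM is not TMM-scaled, and its total includes mitochondrial transcripts. Their share of gene counts was 13.57% in parental cells, 15.11% in course 3 and 9.22% in course 5, which also enters these sums. On the CPM scale, scaled by TMM as in the rest of the text, course 1 was the lowest of the 4 libraries for 9 of the 10 genes, against 35.9% of the 10710 genes. The exception was IMPDH2, lowest in course 3. Course 5 was the highest library for 7 of the 10, against 35.5% of genes. Parental cells were highest for PFAS and UMPS, against 22% of genes, and DHODH was highest in course 3.

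PPAT, the amidotransferase that commits PRPP to purines, stood at 52.1 CPM in parental cells and at 37.3, 60.9 and 71.6 CPM in courses 1, 3 and 5. Set against parental cells, its log2 ratio was -0.48 in course 1 (95% interval -0.57 to -0.39) and 0.46 in course 5. Course 1 lay below the parental library and courses 3 and 5 above it. GART, a trifunctional protein that carries out several early steps, stood at 111 CPM in parental cells and at 61.0, 123 and 145 CPM in courses 1, 3 and 5. The log2 ratio was -0.87 in course 1 (interval -0.93 to -0.80) and 0.39 in course 5. The order of libraries was that of PPAT.

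PFAS, the amidotransferase of the fourth step, had another order, with 155 CPM in parental cells and 67.4, 120 and 107 CPM in courses 1, 3 and 5. Its ratio to parental cells was -1.20 in course 1 (interval -1.26 to -1.14), -0.38 in course 3 and -0.54 in course 5. All 3 DMSO libraries lay below the parental one. PAICS, a bifunctional carboxylase and ligase, stood at 243 CPM in parental cells and at 165, 220 and 270 CPM in courses 1, 3 and 5, a log2 ratio of -0.56 in course 1 and 0.15 in course 5. PPAT and PAICS, the head-to-head pair, shared course 1 as lowest and course 5 as highest, while in course 3 PPAT was above the parental library (0.22) and PAICS below it (-0.14).

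ADSL acts both in ring assembly and, later, in making AMP. It varied little, with 32.5 CPM in parental cells and 26.9, 28.3 and 33.2 CPM in courses 1, 3 and 5. The course 1 ratio was -0.27 (interval -0.38 to -0.17). ATIC, the bifunctional enzyme that adds the last folate-borne carbon and closes the ring, went from 100 CPM in parental cells to 67.1, 122 and 164 CPM in courses 1, 3 and 5. Its log2 ratio was -0.58 in course 1 (interval -0.64 to -0.51) and 0.71 in course 5 (interval 0.66 to 0.76), the highest of the 10 genes in course 5. Courses 3 and 5 were above the parental library and course 1 below it.

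IMPDH2 differed from the others in its narrow range, with 354 CPM in parental cells and 367, 352 and 373 CPM in courses 1, 3 and 5. Its highest library exceeded its lowest by 1.06-fold, and 0.626% of the 10710 genes had a smaller ratio. The course 1 log2 ratio was 0.05 (interval 0.02 to 0.08), and with total counts it was -0.06. IMPDH1, the other isozyme for the same reaction, stood at 104 CPM in parental cells and at 93.6, 98.1 and 97.6 CPM in courses 1, 3 and 5.

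CAD, which carries out the first 3 steps of pyrimidine synthesis, had the widest range of the 10. It stood at 178 CPM in parental cells and at 71.3, 185 and 223 CPM in courses 1, 3 and 5. Its course 1 level was 40.2% of the parental level, a log2 ratio of -1.32 (interval -1.38 to -1.26), and course 5 exceeded course 1 by 3.13-fold. Of the 10710 genes, 6.37% had a larger ratio of highest to lowest library. Course 1 alone was low, and the other libraries lay within a log2 ratio of 0.33 of the parental one.

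DHODH, the mitochondrial dehydrogenase, stood at 27.0 CPM in parental cells and at 12.0, 28.9 and 28.9 CPM in courses 1, 3 and 5, and its course 1 value rests on 519 counts. The course 1 ratio was -1.16 (interval -1.31 to -1.02). Outside course 1 its ratios to parental cells were 0.10 and 0.10. UMPS, which joins the ring to PRPP and makes uridine monophosphate, stood at 48.9 CPM in parental cells and at 29.1, 43.0 and 45.4 CPM in courses 1, 3 and 5. Its ratio was -0.75 in course 1 (interval -0.85 to -0.66), -0.19 in course 3 and -0.11 in course 5, so that it stayed below the parental library.

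**Figure D2:**
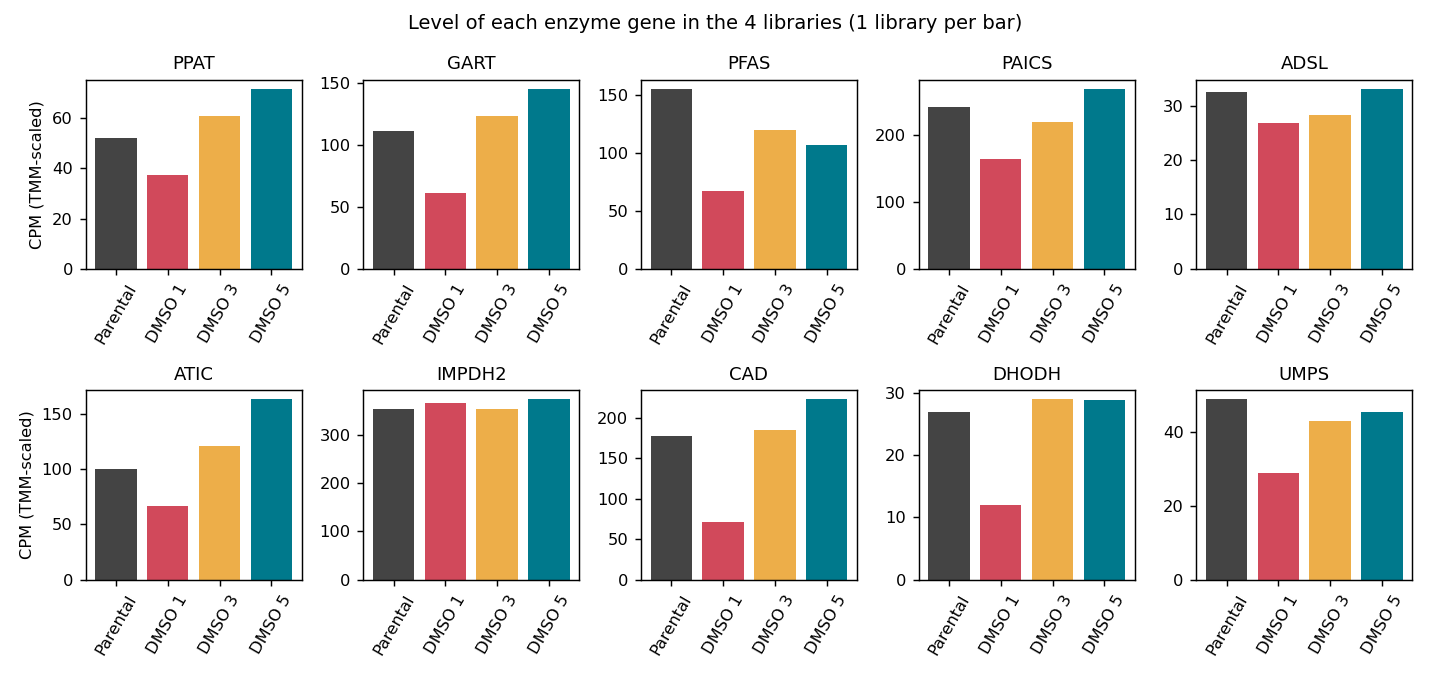
Level of each enzyme gene in CPM (TMM-scaled, linear axis from 0, scaled per gene), with 1 bar per library and no replicate. Course 1 (red) is the lowest bar for every gene but IMPDH2, from 12.0 CPM for DHODH to 165 CPM for PAICS.

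Single libraries were compared with no test, since no course has a replicate. A gene was counted as apart at a ratio of at least 1.5-fold with a counting interval that excluded 1, and the intervals cover counting error only. In course 1 against parental cells, 5 of the 10 genes were lower (GART, PFAS, CAD, DHODH and UMPS), against 14.1% of genes, and 0 were higher, against 12.5%. All 3 pyrimidine genes and 2 of the 7 purine genes were among them. The median log2 ratio of the 10 was -0.67, and that of all 10710 genes was 0.02. PAICS and ATIC were just short of the 1.5-fold bound, and 8 genes were past it with total counts and 3 (PFAS, CAD and DHODH) at 2-fold.

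In course 3 against parental cells, 0 of the 10 were higher, against 6.49% of genes, and 0 were lower, against 6.57%. The median log2 ratio was 0.03, with 0.01 for all genes, and turned to -0.0502 with total counts. In course 5 against parental cells, 1 gene was higher (ATIC), against 11.1%, and 0 were lower, against 12.2%. The median was 0.13, with 0.03 for all genes. At 2-fold no gene of the 10 was higher in course 5. These 3 comparisons share the parental library.

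Courses 5 and 1 were also set side by side. Course 1 was already the lowest library for 9 of the enzymes and course 5 the highest for 7, so this pair gives the size of that difference and no separate result. Of the 10 genes, 8 were higher in course 5, against 19.3% of genes, and 0 were lower, against 18.7%. CAD had a log2 ratio of 1.64, ATIC 1.29, DHODH 1.26, GART 1.25, PPAT 0.94, PAICS 0.71, PFAS 0.66 and UMPS 0.64. ADSL (0.30) and IMPDH2 (0.02, interval -0.01 to 0.06) were not apart. At 2-fold, 4 were higher. The course 1 library is the low side of each of these ratios.

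**Figure D3:**
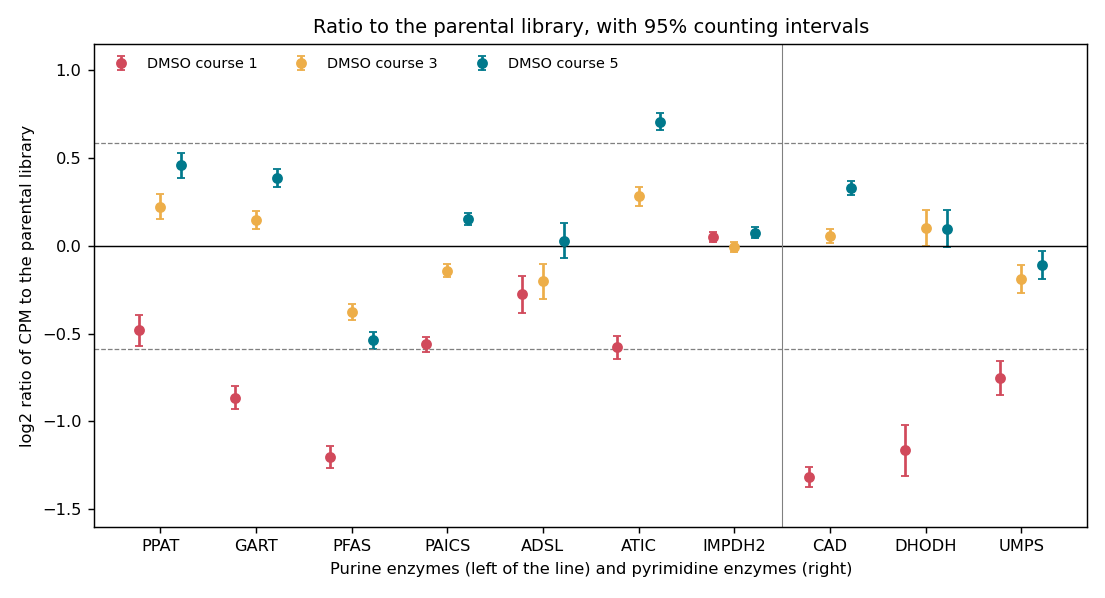
Log2 ratio of each DMSO library's CPM to the parental library's, per enzyme gene, with exact binomial 95% intervals for counting error; dashed lines mark 1.5-fold. Course 1 points lie below 0 for 9 of 10 genes and reach -1.32 for CAD, whereas ATIC in course 5 is the 1 point above the upper line.

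The 10 genes were next tested in fits over all 18612 genes kept by edgeR's expression filter. In the pooled comparison of the 3 DMSO libraries with the parental one, 0 of 18612 genes (0%) and 0 of the 10 had a Benjamini-Hochberg adjusted p under 0.05 in the quasi-likelihood test of edgeR. At an unadjusted p under 0.05 there were 1045 genes and none of the 10, limma-voom called 0 genes, and DESeq2 called 209 with none of the 10. PFAS had the lowest fitted change, -0.66 (SE 0.36, edgeR adjusted p = 0.929), with all 3 DMSO libraries lower. ATIC had the highest, 0.23 (SE 0.52, adjusted p = 0.999), with 2 of 3 higher. The median fitted change was -0.15, with 0.02 for all genes. The standard errors hold the distance between courses, since the DMSO libraries stand in for replicates. Without course 1 the fit called 1578 genes and 0 of the 10, and ATIC then had 0.51 (SE 0.21, adjusted p = 0.172) and PFAS -0.45 (SE 0.18, adjusted p = 0.147).

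The trend over 0, 1, 3 and 5 courses likewise called 0 of 18612 genes (0%) and 0 of the 10 in edgeR. At an unadjusted p under 0.05 there were 2940 genes and 1 of the 10 (ATIC), limma-voom called 0 genes, and DESeq2 called 888 with none of the 10. ATIC had a slope of 0.18 per course on the log2 scale (SE 0.07, edgeR adjusted p = 0.301). PPAT had 0.13 (adjusted p = 0.373), CAD 0.14 (adjusted p = 0.578) and GART 0.14 (adjusted p = 0.482), and PFAS had -0.04 (adjusted p = 0.859). The slope of CAD was fitted across a level that dipped in course 1 and then exceeded the parental one.

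The enzymes called in the trend depended on which libraries entered it. Without course 5 edgeR called 5 genes and without course 3 it called 32, with 0 of the 10 enzymes in both. Fitted to courses 1, 3 and 5 only, with 1 residual degree of freedom, edgeR called 3982 of 16695 genes. Those called with rising slopes numbered 1711, which is 10.2% of all 16695 tested. Of the 10 enzymes, 6 were called, all rising: CAD with 0.41 per course (SE 0.07, adjusted p = 0.00375), ATIC with 0.32 (SE 0.05, adjusted p = 0.00251), GART with 0.31 (SE 0.06, adjusted p = 0.00555), DHODH with 0.31 (SE 0.09, adjusted p = 0.0283), PPAT with 0.23 (SE 0.06, adjusted p = 0.0133) and PAICS with 0.17 (SE 0.05, adjusted p = 0.0261). PFAS (0.16, adjusted p = 0.112), UMPS (0.16, adjusted p = 0.0763), ADSL (0.07, adjusted p = 0.385) and IMPDH2 (0.00, adjusted p = 0.984) were not called. This slope rests on course 1 as its low end. Without course 1 and with the parental library, 2795 of 18377 genes were called, and 6.73% of all tested had rising and 8.48% falling slopes. ATIC then rose by 0.14 per course (SE 0.03, adjusted p = 0.0211) and PFAS fell by 0.11 (SE 0.03, adjusted p = 0.0364). A single enzyme in each direction is near these shares and is not a result about the 10.

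The other genes of nucleotide metabolism were taken from 9 lists of 72 genes around the 10 enzymes. No gene of any list was called in the pooled or the trend fit. The counts that follow are single-library comparisons with no test, in the same terms as above. Against parental cells, 14.1% of all 10710 genes were lower and 12.5% higher in course 1. In course 5, 12.2% were lower and 11.1% higher. A count of 1 or 2 genes in a list is not read as a result about that list. Folate enzymes, which supply one-carbon units to GART and ATIC, had 5 of 7 lower in course 1 (MTHFD1, MTHFD1L, SHMT1, SHMT2 and MTHFD2L), with a median log2 ratio of -0.69. In course 5, 3 were higher than in parental cells (MTHFD2, MTHFD1L and SHMT2) and 1 lower (SHMT1), with a median of 0.21.

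MTHFD1L, the mitochondrial formate-producing enzyme, stood at 88.5 CPM in parental cells and at 21.8, 106 and 180 CPM in courses 1, 3 and 5. Its course 1 log2 ratio was -2.02 and its course 5 ratio 1.03. MTHFD2, its partner in mitochondria, stood at 240 CPM in parental cells and at 167, 449 and 619 CPM in courses 1, 3 and 5. Both had the order of PPAT and ATIC, with course 1 low and course 5 high. SHMT1, the cytosolic serine hydroxymethyltransferase, instead stood at 32.6 CPM in parental cells and at 20.2, 19.6 and 15.5 CPM in courses 1, 3 and 5, below parental throughout.

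Of the 4 genes for PRPP supply, 1 was lower in course 1 (PRPS1, from 47.1 to 27.2 CPM), with a median of -0.15, and PRPS2 stood at 40.6 and 30.7 CPM. All 4 were highest in course 5, against 35.5% of genes. The other genes for AMP, GMP and CTP had 2 of 6 lower (ADSS and CTPS1) and 1 higher (ADSSL1) in course 1. CTPS1, which makes CTP from UTP, stood at 85.2 CPM in parental cells and at 24.3, 73.0 and 88.1 CPM in courses 1, 3 and 5, the course 1 dip of CAD. CTPS2, the other isozyme, stood at 16.4 CPM in parental cells and at 22.3, 22.4 and 22.7 CPM. ADSSL1, an adenylosuccinate synthetase, ran the other way, from 42.0 CPM in parental cells to 127, 21.8 and 10.95 CPM.

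Salvage enzymes, which recycle bases and nucleosides, had 1 of 10 lower in course 1 (HPRT1) and none higher, with medians of -0.12 in course 1 and 0.01 in course 5. TK1, thymidine kinase, stood at 44.6 CPM in parental cells and at 41.6, 25.2 and 19.8 CPM in courses 1, 3 and 5. For the nucleotide kinases, 1 of 6 was higher in course 1 (GUK1) and 1 lower (NME1, from 60.8 to 22.4 CPM), with a median of 0.00. CMPK1, which phosphorylates UMP and CMP, stood at 122 CPM in parental cells and at 133, 180 and 223 CPM in courses 1, 3 and 5.

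Breakdown enzymes had 9 of 13 genes at the minimum level, 1 of them higher (TYMP) and 1 lower (PNP) in course 1, with a median of 0.22. TYMP, thymidine phosphorylase, stood at 45.6 CPM in parental cells and at 81.3, 71.0 and 62.6 CPM in courses 1, 3 and 5. PNP, which splits purine nucleosides, stood at 92.5 CPM and at 52.8, 68.3 and 69.0 CPM. NT5E, the surface 5′-nucleotidase, had 120 counts in parental cells and 2, 0 and 7 in courses 1, 3 and 5. GDA and XDH had 0 counts in all 4 libraries.

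Course 5 was the highest library for 1 of 7 deoxynucleotide genes and 0 of 10 proliferation genes, against 35.5% of all genes. For the synthesis enzymes it was 7 of 10. Deoxynucleotide synthesis genes had medians of -0.51 in course 1 and -0.39 in course 5. TYMS, thymidylate synthase, stood at 128 CPM in parental cells and at 78.3, 81.8 and 87.9 CPM in courses 1, 3 and 5. RRM2, a ribonucleotide reductase subunit, stood at 89.4 CPM in parental cells and at 62.9, 46.5 and 41.1 CPM in courses 1, 3 and 5. Proliferation genes had 3 of 10 lower in course 1 (PCNA, MCM2 and MCM5), against 14.1% of genes, with a median of -0.40. In course 5 they had 5 of 10 lower, against 12.2%, with a median of -0.62. Parental cells were the highest library for 9 of the 10 proliferation genes, against 22% of genes, and course 5 the lowest for 7, against 29.6%. CCNB1, a mitotic cyclin, stood at 99.9 CPM in parental cells and at 80.3, 53.5 and 51.7 CPM. The difference between these lists and the enzymes was not tested.

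The MYC family list had 7 of 8 genes at the minimum level, 2 of them higher (MXD1 and MXI1) and 1 lower (MYCL) in course 1. MYC, a transcription factor known to act on many nucleotide synthesis genes, stood at 808 CPM in parental cells and at 591, 951 and 1120 CPM in courses 1, 3 and 5. Its log2 ratio was -0.45 in course 1 and 0.47 in course 5. The order of libraries was that of PPAT, GART, ATIC and CAD, though CAD lost it with total counts. PFAS, PAICS, ADSL, IMPDH2, DHODH and UMPS had other orders. Genes of other lists, such as PRPS2, MTHFD2 and MTHFD1L, and MYCL also had it. How many of all genes have this order was not counted. MXI1, a MAX partner that opposes MYC, stood at 92.1 CPM in parental cells and at 223, 82.8 and 99.8 CPM. Course 1 was its high library. Any link to the enzymes was not tested.

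**Figure D4:**
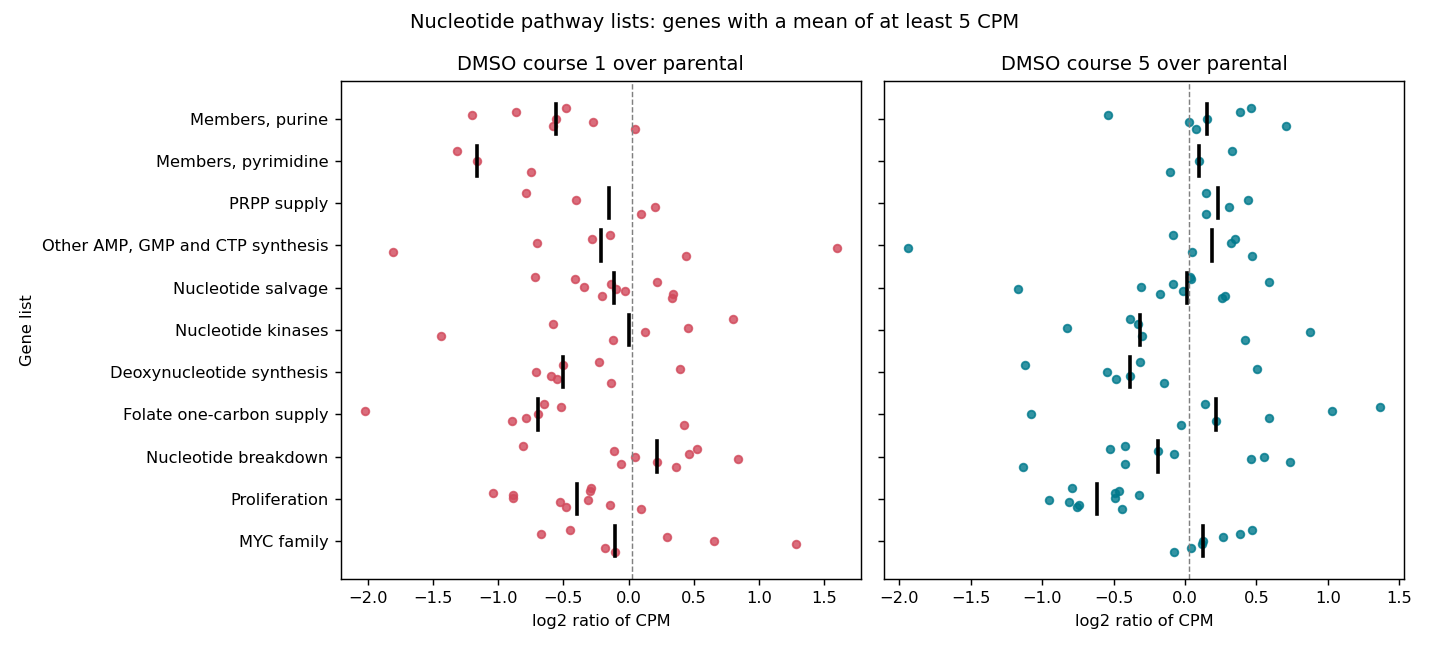
Log2 CPM ratio of DMSO course 1 (left) and course 5 (right) to the parental library for the enzyme genes and 9 related lists, with 1 point per gene at a mean of at least 5 CPM; black bars are list medians and the dashed line is the median of all genes. In course 1 the folate list (median -0.69) lies between the purine enzymes (-0.56) and the pyrimidine enzymes (-1.16). In course 5 proliferation genes lie low (median -0.62) while the enzymes do not.

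Centred on each gene's own mean log2 CPM, the 10 enzymes averaged 0.14 in parental cells, -0.57 in course 1, 0.13 in course 3 and 0.30 in course 5. PAICS lay nearest this mean profile, with a root mean square difference of 0.101 over the 4 libraries, followed by UMPS (0.108) and PPAT (0.114). IMPDH2 (0.345) and CAD (0.301) lay farthest, the former flat and the latter with the deeper dip. Of 9684 other protein-coding genes, the 5 nearest to the mean profile were RPN2 (0.0136), CMTM6 (0.0164), PACRGL (0.0199), SNX17 (0.0201) and ATP6V0D1 (0.0203). RPN2, a subunit of the enzyme that adds sugars to new proteins, stood at 204 CPM in parental cells and at 127, 208 and 229 CPM in courses 1, 3 and 5. The likeness is over 4 libraries only and carries no test.

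Some counts are less certain than the depth alone gives. ADSL shares 1344 exonic bases on its own strand with AL022238.4, which had 32 to 105 counts, so reads there could not be given to 1 gene. GART overlaps SON on the opposite strand over 275 exonic bases, and IMPDH2 overlaps AC137630.3 over 93. PAICS and PPAT have processed pseudogenes with counts of their own: PAICSP4 had 453 counts in parental cells and 233, 371 and 385 over courses 1, 3 and 5, and PPATP1 had 76 and then 32, 85 and 92. Reads that align to several places are in no gene's count. The summary row for such alignments made up 13.86% to 21.33% of gene counts and summary rows together, the most in course 5.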

How the data were processed

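RNA of MOLM-13 cells was sequenced with a TruSeq kit on a HiSeq instrument, per the labels' protocols. The authors deposited raw counts of reads for each Ensembl gene ID, and the submitters' processing notes name hg19, HTSeq 0.6p1, TopHat2 2.0.11 and FastQC 0.11.5. The annotation is not given in the sources used here. All 58735 IDs matched GENCODE 29, which is built on GRCh38, which leaves the counted build uncertain. The chromosome positions printed here come from the RefSeq promoter table. Exonic lengths, gene overlaps and the distance of 126 bases come from GENCODE 29. The labels list 8 samples, of which 4 were not analysed here.

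The 5 HTSeq summary rows (24.57% to 29.81% of gene counts and summary rows together) were left out. CPM used TMM library sizes over filtered genes, and TPM used the union of GENCODE 29 exons. Tests were run in R 4.3.3 with edgeR 4.0.16 (quasi-likelihood, filterByExpr with minimum count 10 and minimum total 15, 2 residual degrees of freedom), with limma 3.58.1 and DESeq2 1.42.0 as alternatives, and adjusted over all genes. The single parental sample is taken to vary as the DMSO libraries do. No label says that the libraries are separate cultures of one state, and p-values then reflect no more than the spread among these samples. That spread includes the distance between courses, and part of it may be technical. Ratios between single libraries carry exact binomial 95% intervals (SciPy 1.17.1). Other scalings, filters, fold thresholds and leaving out each library were tried. The fits were also run on simulated counts with the same dispersion for every gene. In these data different courses stand in for replicates, so that simulation does not vouch for the fits here.

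Genes were named as follows: all 10 enzymes, IMPDH1, up to 4 genes of each list by the size of the fitted pooled change, the genes behind each count, and the 5 nearest profiles. A gene that this rule selects is not reported here. The enzymes, lists and markers were chosen with earlier results of these data known.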

Additional observations from a re-analysis of the deposited data

How the results depend on the processing

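The 10 enzymes' single-library ratios kept their direction under the scalings and thresholds tried, except that with total counts the course 3 median was -0.0502, IMPDH2 in course 1 was -0.06, CAD in course 3 was -0.02 and ADSL in course 5 was -0.01. With total counts the course 1 median was -0.78, with 8 enzymes lower, and the course 5 over course 1 median was 0.90. At 2-fold, 3 were lower in course 1, 0 higher in course 5 over parental, and 4 higher in course 5 over course 1. Course 1 was the lowest library for 9 of 10 with total counts, with DESeq2's size factors and without course 5, and course 5 the highest for 7 or 8. These checks of order were chosen after seeing the data.

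The pooled comparison called 209 genes with DESeq2, 13 with no expression filter and 25 to 1578 without 1 library. The trend called 888, 134 and 5 to 3982 genes, with 0 to 6 enzymes. Without 1 library the pooled change of ATIC ranged from -0.0869 (without course 5) to 0.51, and the slope of PFAS from -0.11 to 0.16 (without the parental library). The cause was not tested. Of the alternative values, 71 of those answering a comparison stayed the same, 19 moved and 1 reversed. For single genes, 128 stayed the same, 25 moved, 3 passed the threshold and 2 (ATIC and PFAS above) reversed. The 3 ratios near 0 named above also changed sign, and are counted as moved or the same because none had been called. No paired analysis was possible because the groups share fewer than 2 replicate numbers. With 1 library per course, spread at a course is unknown and depth limits only the counting part of the error.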
